A study of Homo sapiens with 6 samples.

Results

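Peaks found only in replicate 2 are regions that 1 of the 3 V5 immunoprecipitation libraries listed as bound and the other two did not. They were chosen by the presence and absence of called peaks: all replicate 2 peaks on chromosomes 1 to 22 and X that no peak of replicate 1 or replicate 3 overlapped by at least 1 bp. There were 1222 of them, 48.5% of the 2518 replicate 2 peaks on these chromosomes (exact 95% interval 46.6 to 50.5%), among 5918 peaks in the 3 lists. The comparison set was the 653 replicate 2 peaks (25.9%) that overlapped a peak in both other lists, and the remaining 643 (25.5%) overlapped a peak in 1 other list. The rule used the presence of a peak in each list, so the counts above are a description.

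The libraries were made from HepG2, an established human liver cancer line, in a single clone that carries TAF2 fused to the V5 tag. The labels gave 3 V5 immunoprecipitation libraries and 3 control libraries of the same clone. The control samples are called input in one label and IgG in another, no peak list of theirs was analysed here, and they entered no test. No untagged cells, treatment or second genotype belong to the groups, and the labels do not say whether each library was grown separately. The tests below count peaks as units, so their p-values hold no measure of spread between libraries, technical or biological. Positions are on GRCh38.

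TAF2 belongs to TFIID, a multi-subunit complex that recognises core promoters and helps to place RNA polymerase II at the start of a gene. TAF2 and its partner TAF1 contact promoter DNA around the start site, while the TATA-binding protein contacts DNA upstream of it. V5 is a short peptide tag, and an antibody against it recovers the tagged protein with the chromatin fragments that it is attached to. In such an experiment, a peak is a stretch where recovered fragments pile up above a background, and the summit is its highest point.

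The members with the highest fold over a promoter window are shown with their sequences. A promoter window is the stretch from 250 bases before to 50 bases after an annotated start in the RefSeq table of GRCh38.p14. These members were picked by fold and need not be typical of members at promoters. The 6 strongest lay at the starts of CYP4F3, RPL34, SSC4D, SNHG19, DRAIC and PLCL1. Their bases upstream of the start that are covered by both peak and window are given here on the strand of the gene, 5′ to 3′. They are chr19:15641215-15641311 (plus strand, CYP4F3), chr4:108620609-108620628 (plus, RPL34), chr7:76409698-76409818 (minus, SSC4D), chr16:2155359-2155500 (minus, SNHG19), chr15:69561470-69561607 (plus, DRAIC) and chr2:197804343-197804529 (plus, PLCL1). Capitals mark every match to 1 of 7 short promoter motifs: the GC box GGGCGG, the CCAAT box CCAAT, the ETS core CCGGAAG, the E-box CACGTG, the NRF1 motif GCGCATG and the CREB motif TGACGTC, each on either strand, and the TATA box TATAAA on the strand of the gene only. GGGCGG reads CCGCCC and CCAAT reads ATTGG when the match is on the opposite strand.
CYP4F3: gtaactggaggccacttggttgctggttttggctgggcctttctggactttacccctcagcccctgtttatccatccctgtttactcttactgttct
RPL34: gttgttctcttttccctgtc
SSC4D: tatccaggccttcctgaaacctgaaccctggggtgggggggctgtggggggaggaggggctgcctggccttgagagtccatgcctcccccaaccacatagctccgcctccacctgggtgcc
SNHG19: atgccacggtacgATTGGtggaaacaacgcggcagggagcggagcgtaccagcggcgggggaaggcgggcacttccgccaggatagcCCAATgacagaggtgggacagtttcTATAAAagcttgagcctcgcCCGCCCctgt
DRAIC: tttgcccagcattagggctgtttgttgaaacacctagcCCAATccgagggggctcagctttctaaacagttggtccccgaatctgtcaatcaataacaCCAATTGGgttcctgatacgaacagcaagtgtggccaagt
PLCL1: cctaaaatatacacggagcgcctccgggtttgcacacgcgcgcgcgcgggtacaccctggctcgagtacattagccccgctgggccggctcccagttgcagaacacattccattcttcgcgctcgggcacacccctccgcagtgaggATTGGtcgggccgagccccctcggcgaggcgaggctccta

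The SNHG19 stretch had the most matches, 4. SNHG19 is a noncoding RNA gene that hosts a small nucleolar RNA. Its TATAAA began 30 bases before the start, its forward CCAAT 55 bases before and the reverse CCAAT 129 bases before, and a reverse GC box began 10 bases before it. DRAIC, a long noncoding RNA gene, had 3 CCAAT matches, of which the pair beginning 152 and 149 bases before the start share letters in CCAATTGG. PLCL1, a phospholipase C-like gene without the catalytic role of its relatives, had 1 reverse CCAAT, 103 bases before the start. The stretches of CYP4F3, RPL34 and SSC4D held no match. These are matches of letters, and nothing is drawn from them about a bound factor.

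CYP4F3 encodes a cytochrome P450 that inactivates leukotriene B4. Its peak (chr19:15641215-15641382) had a fold of 7.90 over background, and the summit lay 25 bp before the start. The nearest peaks of replicates 1 and 3 were 852186 and 1606588 bp away. RPL34, a protein of the large ribosomal subunit, had a peak at chr4:108620609-108620844 with a fold of 7.87 and a summit 104 bp after the start, 2362038 bp from the nearest peak of another list. SSC4D, a scavenger receptor gene, had a fold of 7.38 at chr7:76409651-76409818, with the summit 33 bp before the start. The peak at SNHG19 (chr16:2155309-2155500) had a fold of 7.22 and lay 379 bp before the start of the neighbouring protein-coding gene TRAF7. DRAIC had a fold of 6.89 with the summit 229 bp before the start, and PLCL1 a fold of 6.85 with the summit 183 bp before it. In 5 of these 6 members the summit lay upstream of the start, RPL34 being the exception.

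Members were weaker on average than shared peaks, and a minority were as strong. The fold, the authors' own linear ratio of a peak over background, ranged from 2.28 to 11.2 in the 1222 members with a median of 4.88 and a middle range from 4.30 to 5.62. It had a median of 5.34 in peaks shared with 1 list and 6.23 in peaks in all 3, where the highest was 27.3. The median -log10 q, the authors' measure of confidence, was 3.80 in members against 8.09 in peaks in all 3, and the lowest member had 1.31. Strength bears on whether another list holds the same peak, so these differences carry no test.

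Members were also narrow. Their median width was 194 bp against 341 bp in all 3 lists, and 22 members had the shortest width in the list, 145 bp. Above 500 bp there were 18 members (1.47%) and 149 peaks in all 3 lists (22.8%). The members covered 265.9 kb in all, and the fewer peaks in all 3 lists covered 328.9 kb.

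With the list ordered by fold and cut into 4 equal parts, members made up 65.4% of the weakest (412 of 630 peaks), then 59.1% and 45.9%, and 23.7% of the strongest (149 of 630). Of the strongest 50 replicate 2 peaks 1 was a member, and of the strongest 500 there were 103. The peaks found only in replicate 1 (477 of 1556) and only in replicate 3 (682 of 1844) had a median fold of 4.69 and 4.72. Ranked by fold within its own list, the median single-library peak stood at percentile 37.4, 37.7 and 36.4 in replicates 1, 2 and 3. A low rank was thus shared by single-library peaks of every list. Replicate 2 had the longest list and also the largest share found in 1 library, against 30.7% in replicate 1 and 37.0% in replicate 3. No read counts come with the lists, so the part of depth in this was not tested.

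**Figure D1:**
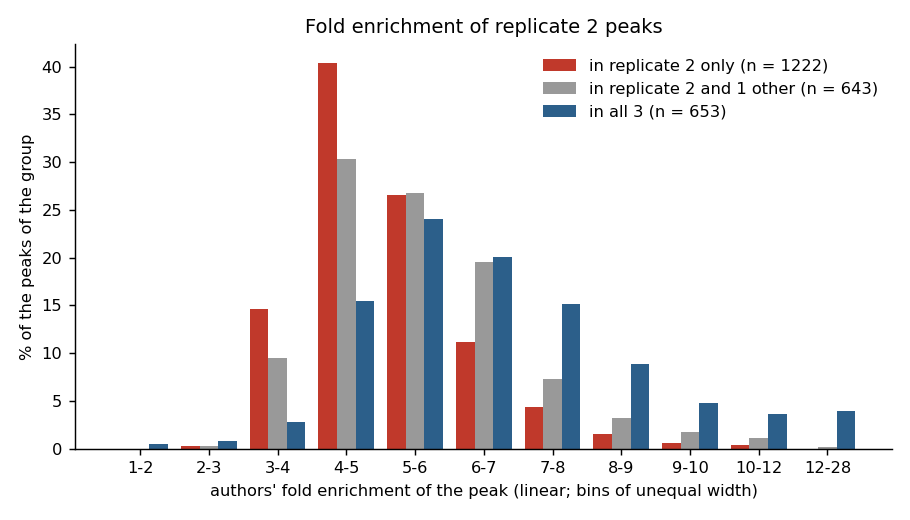
Share of replicate 2 peaks (y axis, percent) by fold over background (x axis, the authors' linear ratio) for peaks found only in replicate 2, in 1 other list and in all 3 lists. Members pile up between 4 and 5, which holds 40.3% of them, and peaks in all 3 lists reach further to the right, with a median of 6.23 against 4.88.

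Most members lay far from any peak of the other lists, and a small share missed an overlap by little. The nearest peak of replicate 1 or 3 was a median of 64340 bp away. It was within 100 bp for 33 members (2.70%), within 1000 bp for 158 (12.9%), within 10 kb for 356 (29.1%) and more than 1 Mb away for 142 (11.6%). Taken by list, 267 members (21.8%) lay within 10 kb of a replicate 1 peak and 292 (23.9%) within 10 kb of a replicate 3 peak. The absence of a peak says that none was called there, and the recovered signal at these positions in the other libraries was not analysed here.

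The members closest to the rule's limit were a peak at chr6:73519140-73519377, 1 bp from a replicate 3 peak with a fold of 4.15, one at chr4:184625829-184626124, 5 bp from a replicate 3 peak with a fold of 6.45, and one at chr1:1888836-1889337, 7 bp from a replicate 1 peak with a fold of 6.04. Just outside the limit, the peaks at chr3:160401415-160401672, chr12:56685275-56685444 and chr11:62853847-62853998 overlapped another list by 1, 3 and 5 bp and had folds of 3.46, 4.39 and 5.24. The ranges of fold on both sides of the limit overlapped.

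**Figure D2:**
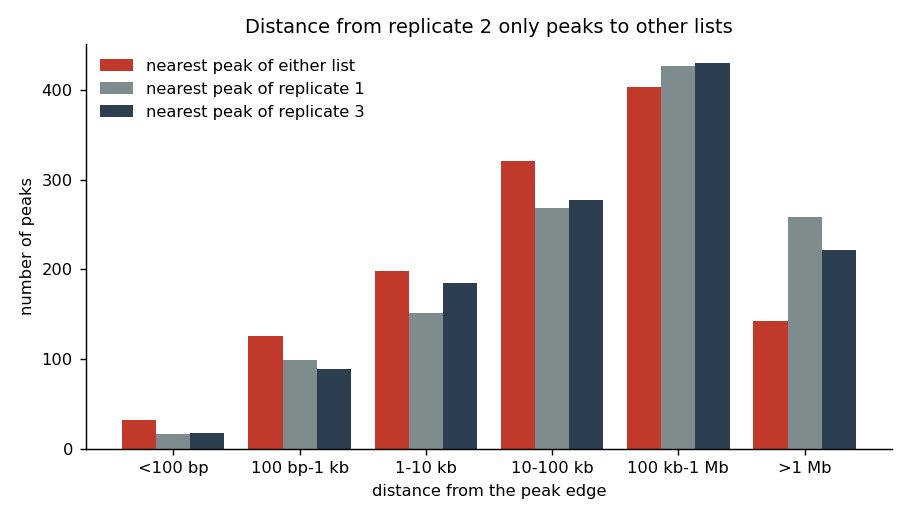
Number of peaks found only in replicate 2 (y axis) by distance to the nearest peak of the other lists (x axis, bp, on classes from under 100 bp to over 1 Mb, with bars for either list and for each list). For either list the fullest class, from 100 kb to 1 Mb, holds 403 members, and the class under 100 bp holds 32.

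Members were spread over the genome, and a smaller share of them than of shared peaks lay in crowded stretches. Windows of 100 kb with at least 5 replicate 2 peaks held 163 members (13.3%), against 20.8% of all replicate 2 peaks and 34.2% of those in all 3 lists. Joining members no more than 100 kb apart gave 952 runs, of which 770 were a single member and 51 held 3 or more. Of those 51 runs, 17 had no peak of another list in their span.

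The run with the most members reached from upstream of EML4, a microtubule-binding protein gene, into it, on chr2:42092391-42194228. It held 9 members, with folds from 4.19 to 6.95, among 30 peaks of the other lists, so these members lay between peaks of the other lists, the nearest 25 bp away. EML4 itself carried 6 members out of 18 replicate 2 peaks, against 14 and 10 peaks in replicates 1 and 3.

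Other genes had several members and nothing from the other lists. DLC1, which encodes a GTPase-activating protein, carried 4 members with folds from 4.66 to 7.88 and no peak of replicate 1 or 3. Its run spanned 174.4 kb, and the nearest other-list peak was 1412387 bp away. UGT2B7, a liver enzyme gene of drug glucuronidation, carried 4 members with folds from 3.94 to 6.07 and none of the other lists. Of its members, 2 had a summit 597 and 105 bp before an annotated start, and the nearest other-list peak lay 31959 bp away. A run of 3 members on chr4:154560701-154598315 spanned the fibrinogen genes FGA and FGB, which encode chains of the clotting protein secreted by hepatocytes, with every member between genes and not over them. It had folds from 5.15 to 9.07, and the nearest other-list peak was 14.2 kb off. MBNL3, a splicing regulator, and RERE and CFDP1 had 3 members each with no other-list peak. They were named after their values were seen, as was the fibrinogen run.

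In SETD5, a SET-domain gene of chromatin, the 5 members outnumbered the single peak in each other list. Their folds ran from 4.54 to 10.03, and the strongest was 5413 bp from the nearest start and 2680 bp from the nearest other-list peak. FAT1, an atypical cadherin, and PDE4D, a cAMP phosphodiesterase, carried 5 members each. FAT1 also had 4 and 2 peaks of replicates 1 and 3, and so had PDE4D. TRIM24 (5 members) had 14 and 12 peaks of replicates 1 and 3, FNDC3B (5) had 7 of each, and TGFBR2, a TGF-beta receptor, had 4 members beside 10 and 8. In all, 31 protein-coding genes had 3 or more members over them or 2 or more at their ends.

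The 10 strongest members lay away from the ends of protein-coding genes, without exception. Their folds ran from 9.23 to 11.2, 6 were inside a protein-coding gene and 4 were not, and the nearest other-list peak was between 2680 and 612849 bp away. The strongest of all (chr5:143555305-143555468, fold 11.2) was inside LOC105378208, a long noncoding RNA gene, 40838 bp from a replicate 1 peak. CLU, which encodes the secreted chaperone clusterin, held one of fold 10.4 on chromosome 8. ACACA, the acetyl-CoA carboxylase of fatty acid synthesis, held one of fold 10.3 at chr17:37147352-37147497, 152364 bp after its nearest annotated start and 211727 bp from the nearest other-list peak. CMIP, NUGGC and SPRED2, an inhibitor of Ras to MAP kinase signalling, held members of fold 9.76, 9.55 and 9.23. The members nearest to NRP1 (fold 10.3), DLG1 (9.49) and SCGB2A2 (9.34) were outside protein-coding genes.

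Members over protein-coding genes were divided between genes with and without a peak of the other lists. The rule leaves out peaks that another list overlaps, which bears on these shares, and no comparison group was counted. Of the members, 758 (62.0%) overlapped a protein-coding gene, 641 genes in all. For 401 of these members (52.9%) no replicate 1 or 3 peak lay over the host gene or within 1000 bp of it, for 139 only 1 list had a peak there, and for 218 both had. So 47.1% of the members inside genes sat in a gene that another library also marked, at another position.

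Genes with a member at an end (within 1000 bp of either annotated end) were few. They numbered 236 of 19974 protein-coding genes (1.18%), and at 203 of them neither other list had an end peak. The rule leaves out peaks that another list overlaps, so the count of 203 is partly set by it and is a description. Of the 15812 genes whose start is in the promoter table, 189 (1.2%) had a member within 1000 bp of a start. The table holds no window on chromosome 8, so shares by start leave that chromosome out.

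Measured over peaks, 207 of 1222 members (16.9%, exact 95% interval 14.9 to 19.2%) were at a protein-coding gene end, against 16.4% of all replicate 2 peaks and 95 of 653 peaks in all 3 lists (14.5%, 11.9 to 17.5%). The difference of 2.39 percentage points was not past the threshold (two-sided Fisher's exact test, p = 0.188). Over promoter windows the shares were 129 of 1171 members (11.0%, 9.28 to 12.95%), against 10.6% of all replicate 2 peaks, and 56 of 626 peaks in all 3 lists (8.95%, 6.83 to 11.5%), a difference of 2.07 points (p = 0.192, Fisher's exact test). Replicate 2 peaks shared with 1 other list had shares close to those of members, 17.3% at gene ends and 11.6% over promoter windows. Peaks of 1 library are not replicates, and these p-values describe the list. Without replicate 3 in the rule both differences passed, at 4.75 points (p = 0.0018) and 4.05 points (p = 0.00165), while without replicate 1 both turned negative, at -1.52 and -1.32 points (same exact test).

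Judged by the summit, members were more often at protein-coding ends than peaks in all 3 lists. The summit was within 1000 bp of one for 199 members (16.3%) and 75 peaks in all 3 lists (11.5%), a difference of 4.80 points (adjusted p = 0.0245 over 5 classes, Fisher's exact test, two-sided). The other classes did not pass. Inside a protein-coding gene were 609 member summits (49.8% against 47.9%, adjusted p = 0.438), and between genes 240 (19.6% against 22.4%, adjusted p = 0.22, same exact test). At the end of another gene the shares were 6.14 and 7.81%, and inside another gene 8.10 and 10.4%, both with an adjusted p of 0.22 by the exact test. The class of protein-coding ends was no longer past the threshold with a -log10 q of at least 5 (adjusted p = 0.266), a fold of at least 5 (0.297) or without replicate 1 (0.634 points, 0.689), by the exact test, among other settings. Peaks shared with 1 other list lay between the groups at protein-coding starts. Their summits were within 1000 bp of one in 13.2%, against 14.5% of members and 11.2% of peaks in all 3 lists, which was not tested.

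Restricted to protein-coding starts, an alternative added after the data were seen, promoter windows lay under 116 members (9.91%) and 39 peaks in all 3 lists (6.23%), a difference of 3.68 points (two-sided Fisher's exact test, p = 0.00807). Replicate 2 peaks shared with either other list, but not with both, stood close to members, at 60 of 623 (9.63%). The higher share was thus not particular to members, though this group was not tested. With windows of noncoding RNA genes the order of members and peaks in all 3 lists was the opposite. Their shares were 2.05 and 3.99%, which was not tested. Starts held far more members than 3′ ends. Within 1000 bp of a protein-coding start were 180 of 1171 members (15.4%, 13.4 to 17.6%) and of a 3′ end 24 (2.05%), with 4 at both. The figures for peaks in all 3 lists were 14.2 and 2.40%.

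Members close to a start were mostly upstream of it. The summit of 170 members was within 1000 bp of the nearest protein-coding start, 125 before it and 45 after, and 51 were within 100 bp. The 250 bp just before the start held 89 member summits (7.60%) against 20 (1.71%) in the 250 bp after it. In peaks in all 3 lists the same bins held 26 (4.15%) and 8 (1.28%). In replicate 2 peaks shared with 1 other list they held 48 (7.70%) and 9 (1.44%), so this position was not particular to members. The median distance from summit to start was 20733 bp in members and 21968 bp in peaks in all 3 lists, and 60.2 and 59.6% lay beyond 10 kb. Beyond 100 kb the shares were further apart, at 17.8% of members and 23.2% of peaks in all 3 lists. Peaks shared with 1 other list stood at 19.6%, and this was not tested. Of the 557 members inside exactly 1 gene, 256 (46.0%) lay in the first of 4 equal parts of its length and 85 (15.3%) in the last, against 51.2 and 11.9% in all 3 lists.

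**Figure D3:**
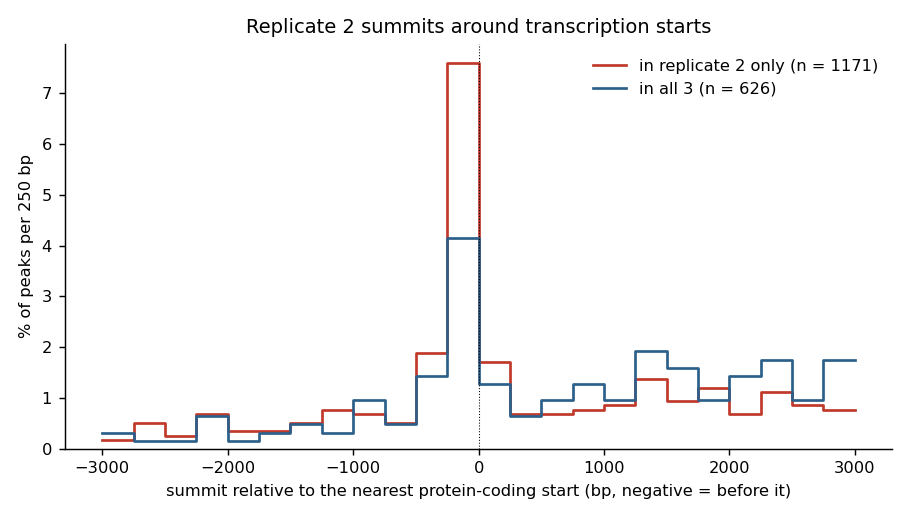
Share of summits (y axis, percent of the group) in 250 bp bins around the nearest protein-coding start (x axis, bp, negative before the start) for peaks found only in replicate 2 and in all 3 lists. The bin just before the start is the tallest, with 7.60% of members and 4.15% of peaks in all 3 lists.

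Replicate 2 members differed in gene position from the peaks found only in replicate 3, and not detectably from those found only in replicate 1. At protein-coding gene ends were 16.9% of replicate 2 members, 87 of 477 replicate 1 peaks (18.2%, 14.9 to 22.003%) and 230 of 682 replicate 3 peaks (33.7%, 30.2 to 37.4%). The difference from replicate 3 was -16.8 points (adjusted p = 4.81e-16 over both comparisons, Fisher's exact test, two-sided) and that from replicate 1 was -1.30 points (adjusted p = 0.522). The first kept its sign and passed under all 11 alternatives, from -20.7 to -12.6 points. The second reversed with a fold of at least 5 (1.54 points, p = 0.71) and passed with a window of 2000 bp (-6.67 points, p = 0.00536, both by the exact test). Protein-coding promoter windows followed the same order, with 9.91% in replicate 2, 10.8% in replicate 1 and 24.0% in replicate 3. Each comparison sets 1 library against 1 library with peaks as units, so the p-values describe these lists. Replicate 3 peaks shared with 1 other list were also high at gene ends, at 23.1%, against 17.3% in replicate 2 and 15.8% in replicate 1. Members stood near the 16.4% of all replicate 2 peaks.

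**Figure D4:**
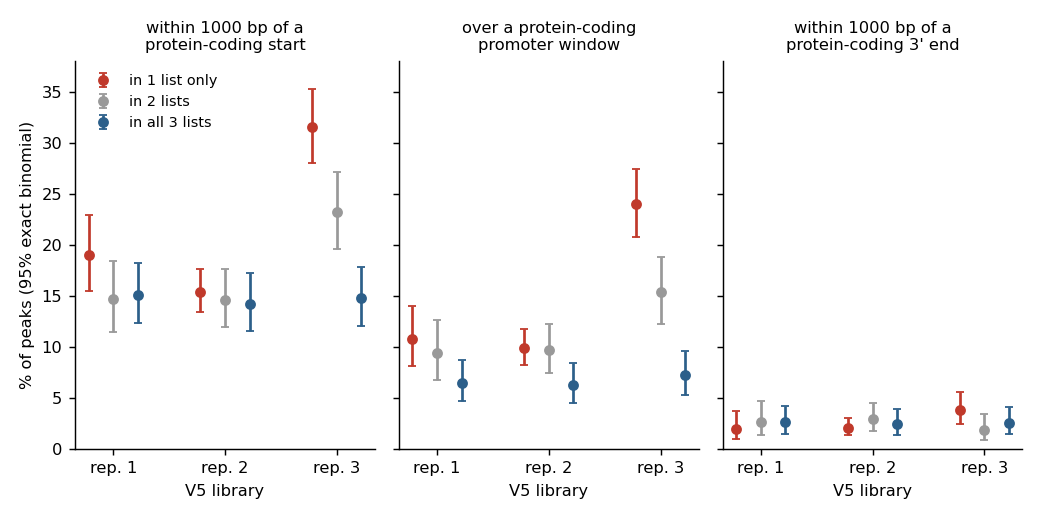
Share of peaks (y axis, percent, with exact 95% intervals as bars) at protein-coding starts, 3′ ends and promoter windows for peaks found in 1 list only, in 2 lists and in all 3 lists, by replicate (x axis). For starts, replicate 3 stands at 31.6% against 15.4% in replicate 2 and 18.9% in replicate 1, while peaks in all 3 lists stand at 14.2% in replicate 2.

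The 15 strongest members at gene ends had folds from 6.39 to 7.90. Beside the genes shown with their sequences, MALT1, a protease of immune signalling, had a peak with a fold of 6.58 whose summit was 102 bp before the start. TMEM135, a membrane protein gene of peroxisomes and mitochondria, had a fold of 6.61 at 164 bp before it. OGT, the enzyme that attaches N-acetylglucosamine to nuclear and cytoplasmic proteins, had a fold of 6.39 at 83 bp before the start (chrX:71532878-71533124), and the nearest other-list peak was 21720407 bp away. SYNCRIP, an RNA-binding protein of the hnRNP family, had a fold of 7.17 at 897 bp after the start. COL27A1, a fibrillar collagen, had 6.61 and NOCT, a circadian phosphatase, 6.39. ISOC1 had 6.505, with the nearest other-list peak 4898491 bp away, and FGL1, a liver-secreted fibrinogen-like protein, had 6.51, with other-list peaks 267 and 334 bp away. Members of fold 7.06 and 6.39 were at 3′ ends, of ITGA10, an integrin, and of the neighbours NHERF2 and NTHL1.

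Promoters under members had a GC content near that of all protein-coding promoters and below that of promoters under shared peaks. The 135 protein-coding windows under members, from 121 genes, had a median GC content of 63.7%, against 62.3% over all 22132 protein-coding windows and 67.0% over the 45 windows under peaks in all 3 lists. The observed over expected CpG ratio was 0.833, 0.738 and 0.905 in the same order. Of the promoters shown with their sequences, the windows of CYP4F3, SSC4D and DRAIC had ratios of 0.146, 0.165 and 0.248. Those of RPL34, SNHG19 and PLCL1 had 0.791, 0.964 and 0.903. Among these windows, only those of RPL34 and SNHG19 held a GC box. The GC box was in 77.8% of windows under members, 56.3% of all and 75.6% of those under peaks in all 3. CCAAT was in 45.9, 34.6 and 51.1%, and TATAAA in 5.93, 6.47 and 11.1%. The ETS core was in 18.5, 12.8 and 8.89%, the E-box in 15.6, 8.34 and 15.6%, the NRF1 motif in 8.89, 5.26 and 0%, and the CREB motif in 5.19, 4.08 and 4.44%. Windows of a gene can overlap, the search covered the whole window, and no share was tested.

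Among lipid genes, members were at 2 of 14 fatty acid synthesis genes by their ends and at none of 21 sterol synthesis genes, against 1.18% of all protein-coding genes. Counting members over the gene, 5 of the 14 had one, against 3.69% of all protein-coding genes. SCD, the stearoyl-CoA desaturase, had a fold of 5.25 with the summit 252 bp before the start and no other-list peak within 26140 bp. ACACA is described above, ELOVL6, a fatty acid elongase, had 4.43 inside the gene, and DGAT2, which makes triglyceride, had 4.30. GPAM, the first enzyme of glycerolipid synthesis, had a fold of 3.68 at an end. The sterol synthesis gene MSMO1 (5.41) had a member inside, as did NPC1 (6.92), a lysosomal cholesterol carrier.

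Among genes of liver products, members were at the ends of 2 of 18 lipid transport genes, 1 of 44 plasma protein genes (2.27%) and 1 of 47 cytochrome P450 genes (2.13%), the last being CYP4F3, against 1.18% of all protein-coding genes. APOH had folds of 4.57, at 216 bp before the start, and 4.92 inside the gene, and no other-list peak within 638571 bp. APOB, the protein of very low density lipoprotein, had 4.39 and 4.21, within 239 to 1271 bp of other-list peaks. AFP, a fetal plasma protein that liver tumours often make again, had 3 members of fold 7.44, 6.06 and 4.22, with summits 2929, 1760 and 268 bp after the start. The nearest other-list peaks were 360, 1334 and 31 bp away, on the flanks of the run, and none lay between its members.

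Hepatocyte transcription factors had members at 4 of 22 gene ends (18.2%), against 1.18% of all protein-coding genes. Among them were NR1H4, the bile acid receptor, with a fold of 4.56, FOXA1 (3.65, at the 3′ end) and NR0B2 (3.94). The NR1H4 summit was 28612 bp before the only start that the promoter table holds for the gene, near the 5′ end of its annotated span, and the table holds no NR0B2 start. NR1I2, the xenobiotic receptor, had a member inside of fold 6.58 and PROX1 one of 4.43. The list of neuron, muscle and blood genes, which belong to other tissues, had no member at any of 50 gene ends and 1 inside, in SYT1 (fold 4.55). A count of 0 in a list of this size allows a share up to 6%, above the 1.18% of all protein-coding genes.

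Liver cancer genes had members at 5 of 40 ends (12.5%, against 1.18% of all protein-coding genes) and at an end or over the gene in 11 (27.5%, against 3.69%). ZNRF3 and RNF43, membrane ubiquitin ligases that remove Wnt receptors, both had several. ZNRF3 had folds of 8.77, 8.71 and 5.16 inside the gene. RNF43 had 6.12 at 116 bp before the start, with a replicate 1 peak 315 bp away, and another 4 members inside. TBX3, a T-box factor, had 5.58 at an end. Of the 11 genes, ARID1A and MDM2 were also among those with an end member.

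Genes for making proteins and handling RNA had members near starts. A list of splicing factors, with SR and hnRNP proteins and the RNA helicase DDX5, had them at 6 of 42 ends (14.3%, against 1.18% of all protein-coding genes). All 6 were within 1000 bp of a start, and 13 of 42 genes had a member at an end or over the gene (31.0%, against 3.69%). Examples are HNRNPD (fold 4.15, summit 110 bp before the start), HNRNPH3 (4.57, 113 bp before), SRSF1 (4.67, 308 bp before) and DDX5 (5.29 and 5.15, with summits 157 and 4 bp before the start). HNRNPR (6.40), HNRNPLL (5.52) and HNRNPF (5.40) had members inside. Ribosomal proteins of the cytosol had members at 5 of 79 ends (6.33%). RPL13A had 6.04 at 68 bp after the start, RPS9 had 3.93 at 23 bp before it, and RPL5 had 5.13. Translation factors had members at 4 of 57 ends, among them EIF4A2 (4.84) and EIF4G1 (4.66, 81 bp before the start).

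Stress and growth genes had a few members each, to be read against 1.18% of all protein-coding genes. Chaperones had members at 3 of 26 ends (11.5%), all at starts: HSP90AB1 (5.24, 46 bp before), TCP1 (4.45, 191 bp before) and HSPA9 (4.84). The unfolded protein response list had 1 of 27, HSP90B1 (3.52, 190 bp before), and HSPA5, the main chaperone of the endoplasmic reticulum, held a member of fold 8.36 inside, 1310 bp after the start. The immediate early list had 4 of 33: MCL1 (6.30), CCN2 (5.62, 122 bp before), JUND (5.51, 361 bp before) and IER3 (3.52). Cell cycle genes had 4 of 50, with CDK1 (5.13, 13 bp after the start), PLK1 (4.83, 102 bp before), CDKN1B (4.65, at the 3′ end) and WEE1. NRF2 target genes had 3 of 31 at ends and 8 at ends or inside (25.8%, against 3.69% of all protein-coding genes), such as TXNRD1 (5.40) and SLC7A11 (5.40). Cytoskeleton genes had 3 of 36, where KRT8, a keratin of simple epithelia, had folds of 7.37, 7.02 and 4.30, and SPTBN1, a spectrin, had 7.86 inside.

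Several lists had no member at an end. No gene of TFIID and the general transcription factors (30), of nuclear oxidative phosphorylation (72) or of the proteasome (38) had one at an end or over it. Over all protein-coding genes that share was 3.69%. Counts of 0 in lists of these sizes allow shares up to 10, 4.17 and 7.89%, so they do not show a lack of members. RNA polymerase II and Mediator had 1 of 43 (2.33%, against 1.18% of all protein-coding genes), MED29 (3.94, at the 3′ end). The lists were chosen with earlier results of these data known, so their counts describe where members fell and are not evidence of a group effect.

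Short RNA genes were near few members. The only tRNA gene within 1000 bp of a member was TRF-GAA1-2, 510 bp from a peak at chr6:28980919-28981162 with a fold of 8.72 and a -log10 q of 17.1. MicroRNA genes were near 8 members (0.655%, against 1.23% of peaks in all 3 lists) and snoRNA genes near 9 (0.736%, against 1.07%). Of these, MIR3188 was overlapped by the JUND peak of fold 5.51, and SNORD45C by a peak of fold 5.15 in RABGGTB. SNORD60 lay 204 bp from the SNHG19 peak. By gene type, protein-coding genes were within 1000 bp of 840 members (68.7%, against 62.6% of peaks in all 3), and long noncoding RNA genes within that of 245 (20.05%, against 23.9%).

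The share of members on a chromosome differed from that of peaks in all 3 lists past the threshold on chromosome 20. Chromosome 20 held 51 members (4.17%, exact 95% interval 3.12 to 5.45%) against 50 peaks in all 3 (7.66%, 5.74 to 9.97%), a difference of -3.48 points (adjusted p = 0.0416 over 23 chromosomes, Fisher's exact test, two-sided). This was 1 of 23 chromosomes tested (4.35%). It did not pass without windows of 5 or more peaks (-1.02 points, adjusted p = 0.777), with 1 peak per 100 kb window (0.843) or without replicate 3 (-2.10 points, 0.255), each by the exact test. Chromosome 2 held the most members, 134 (11.0% against 10.9%), and chromosome 9 had the next lowest unadjusted p, 0.0655, with 3.601% of members against 1.99% (adjusted p = 0.665, exact test).

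**Figure D5:**
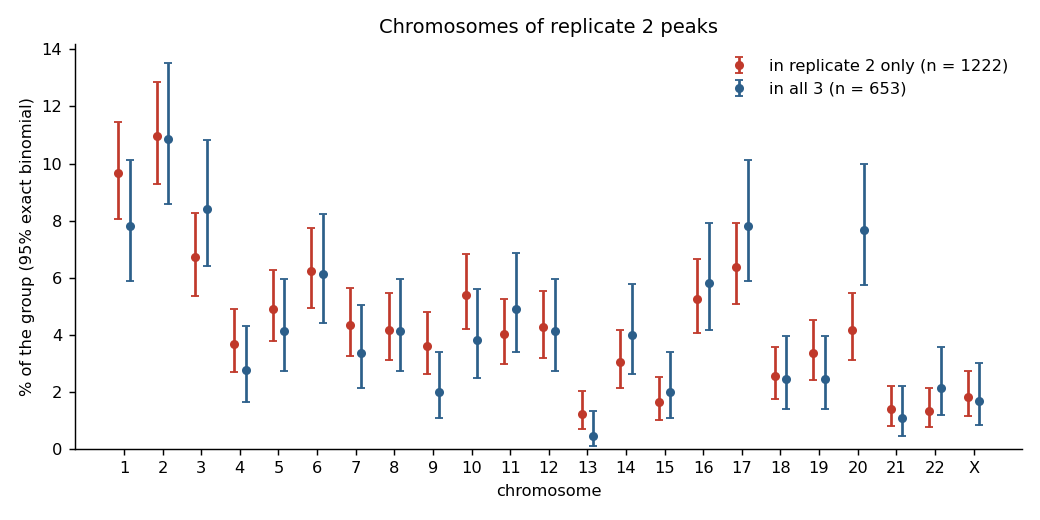
Share of peaks (y axis, percent) with exact 95% intervals as bars, on each chromosome (x axis) for peaks found only in replicate 2 and in all 3 lists. Chromosome 20 has the clearest gap, with 4.17% of members against 7.66%, and chromosome 2 stands near 11% in both groups.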

How the data were processed

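The deposited peak lists of 3 V5 ChIP-seq libraries were used, and the 3 controls of the 6 samples, grouped by treatment in the labels, entered no test. Per the submitters' processing notes the build was GRCh38. What aligned the reads and called the peaks, with which cutoff and control, is not given in the sources used here, and depth is unknown. Each list was in narrowPeak layout. The authors' fold is a linear ratio of a peak over background. The authors' -log10 p and -log10 q were taken as deposited, and only q and fold were used. Median folds of other lists are a description, and stricter cutoffs were the same in every list, though depth and control may differ between lists. The deposited score, 10 times the -log10 q without its decimals, was left aside. The summit is the authors' offset from the peak start.

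Members were found by overlap of at least 1 bp. Gene spans and starts came from RefSeq tables on GRCh38.p14, with 34961 promoter windows and none on chromosome 8. Windows of 1000 bp were used around gene ends. Fisher's exact tests were two-sided, with Benjamini-Hochberg adjustment over classes, chromosomes or comparisons and a threshold of 0.05. Intervals of shares are 95% exact binomial (Clopper-Pearson) and hold counting error alone.

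Members and gene lists were chosen with earlier results of these data known. The text names the 10 strongest members, the 15 strongest at gene ends, up to 4 genes of each list by fold, up to 10 genes with several members, the 3 peaks nearest either side of the rule's limit and the 6 strongest promoter stretches. Some items that this rule names are left out of the text. Other genes were named after their values were seen. Alternatives were stricter peaks, other windows, other overlap rules, thinned or crowded windows and each replicate left out. Promoter windows of protein-coding starts only, and the summit in the window, were added after seeing the data. The code was tested on simulated data and used Python 3.11.15, numpy 2.4.6, pandas 2.3.3, scipy 1.17.1 and matplotlib 3.10.9.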

Additional observations from a re-analysis of the deposited data

Results flagged for a closer look

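Replicate 2 also had peaks outside chromosomes 1 to 22 and X, which no comparison above used. There were 13 on the mitochondrial genome and 26 on unplaced and unlocalised contigs, with no control list to set beside them. Of these, 1 and 4 were found only in replicate 2, and 12 and 19 were in all 3 lists. Their median folds were 2.96 and 3.31.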

How the results depend on the processing

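Of the results compared across settings, only the lower share at gene ends than in replicate 3 kept its side of the threshold throughout, with -20.7 to -12.6 points under 11 alternatives. The number of members was 786 and 369 with a -log10 q of at least 3 and 5, 546 with a fold of at least 5, and 1501 to 1586 with a replicate left out. Genes with an end member numbered 148, 66 and 92 under the same 3 filters, 156 with a window of 250 bp, and 268 to 321 with a replicate left out. By Fisher's exact test, the gene-end difference from peaks in all 3 lists was -0.0778 points (p = 1) with an overlap of at least 50% of the peak, 3.35 (p = 0.0264) with a window of 250 bp, 4.80 (p = 0.00489) by the summit, and from -1.52 without replicate 1 to 4.75 without replicate 3. The promoter difference by the exact test was -0.0831 (p = 1) with a fold of at least 5, -1.03 (p = 0.542) with an overlap of 50%, 3.68 with protein-coding starts, 2.91 (p = 0.0368) by the summit, and from -1.32 to 4.05 with a replicate left out. By the exact test the difference from replicate 1 was 1.54 with a fold of at least 5, 0.2995 (p = 0.933) with a window of 250 bp and -6.67 with 2000 bp.

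Of 5 classes 1 passed, but 0 did with a -log10 q or fold of at least 5, with peaks within 1000 bp counted as overlapping or with 1 peak per 100 kb window, 3 with an overlap of 50%, 4 without crowded windows, and 0 to 1 with a replicate left out. Protein-coding ends by the summit had an adjusted exact test p of 0.151, 0.256 and 0.0803 with 1000 bp, with 50% and thinned. Of 23 chromosomes 1 passed, but 0 did with a -log10 q of at least 3 or 5, with 500 or 1000 bp counted as overlapping, thinned or without crowded windows, and 0 to 1 with a replicate left out. The median fold was 4.92 with either replicate left out. The causes were not tested. No paired analysis was possible because the controls that share replicate numbers with the V5 libraries have no list here. No read counts come with the lists, so depth limits on single peaks are unknown.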
